A study of Gallus gallus with 9 samples.

Results

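In granulosa cells of the F1 follicle of the hen, 41 of 12479 listed mRNAs had a higher mean level at the ZT12 stage than at ZT0 and again a higher mean level at ZT20 than at ZT12. They were chosen from the deposited values, which were read as log2(TPM + 1), TPM being a relative level of a transcript that takes its length into account. The mean of the 3 libraries at ZT12 had to exceed that at ZT0 by at least 0.5, and the mean at ZT20 had to exceed that at ZT12 by at least 0.5 and by less than 2. These differences are called the first and the second step. Since all 9 libraries were used in this choice, the levels and steps of the 41 mRNAs are given as a description, without a test.

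The study followed the ovulatory cycle of laying hens. F1 granulosa cells were taken from 3 hens at each of 3 stages, and total RNA was sequenced as 9 libraries, so n = 3 counts hens at a stage and SD measures the spread between them. All birds were Rohman layers aged 210 days that were kept under the same light program. The ZT0 stage was sampled at 9 o'clock in the morning, ZT12 at 21 o'clock and ZT20 at 5 o'clock in the morning, the last being the stage that the study places at the LH surge. Stage, clock time and phase of the light program change together in this design and cannot be told apart.

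The F1 follicle is the largest preovulatory follicle and the next to ovulate. Its granulosa layer lies between the oocyte and the basal lamina, and it answers the surge of luteinizing hormone (LH) from the pituitary through a receptor that raises cAMP, with progesterone as its main steroid product. Around ovulation, granulosa cells also change the proteins that they secrete, their contacts with each other and their traffic of membrane proteins.

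The pattern was uncommon among mRNAs. A first step of at least 0.5 was seen for 340 mRNAs, and a second step between 0.5 and 2 was seen for 2903. Both steps of at least 0.5 with the second at 2 or more were seen for a further 23 mRNAs. The mirrored pattern, a lower mean at each step within the same limits, was met by 462 mRNAs. With the median ratio scaling described next, the numbers were closer, 91 mRNAs within the limits and 160 with the mirrored pattern. The median of all 12472 tested mRNAs was -0.28 for the first step and 0.08 for the second, both on the log2(TPM + 1) scale. Thus the first step of the 41 mRNAs ran against a general shift toward lower values at ZT12. When each library was divided by its median ratio to a common reference, the medians of all mRNAs were -0.02 and 0.01. The 41 mRNAs then had first steps of 0.61 to 2.04 and second steps of 0.41 to 1.90. So they stayed higher at ZT12 than at ZT0 and higher at ZT20 than at ZT12 on either scale. The mean ratios of the ZT0, ZT12 and ZT20 libraries were 1.16, 0.912 and 0.974, which raises first steps and lowers second steps slightly. With steps of at least 0.5 required by the choice, the direction could not change, so the second scale is no separate support.

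**Figure D1:**
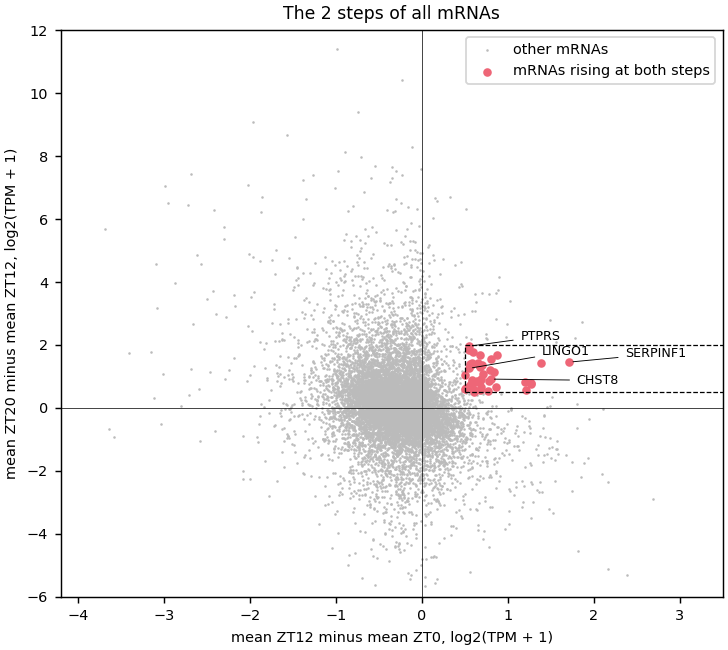
Each point is an mRNA, with the mean ZT12 value minus the mean ZT0 value on the x axis and the mean ZT20 value minus the mean ZT12 value on the y axis, both as log2(TPM + 1). The dashed lines are the limits of 0.5 and 2, red points are the 41 mRNAs within them, and SERPINF1 lies farthest to the right of these, with steps of 1.72 and 1.46.

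The first step of the 41 mRNAs ranged from 0.50 to 1.72 with a median of 0.68. The second step ranged from 0.50 to 1.96 with a median of 0.91, and the whole difference between ZT20 and ZT0 ranged from 1.11 to 3.17 with a median of 1.80. On the deposited scale the second step was the larger in 30 mRNAs and the first was the larger in 11, but after median ratio scaling the first was the larger in 24 and the second in 17. The share of the whole difference that fell into the first step went from 21.9% for PTPRS to 68.3%, with a median of 42.8%. After scaling it went from 28.4%, again for PTPRS, to 76.3%, with a median of 52.4%. Which of the steps was the larger thus depended on the scale. At the limits, the first steps just inside were 0.501 for OLFML2B and 0.503, and those just outside were 0.498 and 0.492. The second steps just inside the lower limit were 0.503 and 0.529, with 0.480 and 0.465 just outside. At the upper limit PTPRS with 1.96 and another mRNA with 1.85 were inside, while 2.09 and 2.18 were just outside. The limits therefore cut through a continuous range of values.

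Most of the 41 mRNAs had low to moderate levels. The mean TPM at ZT0 lay between 0 and 416 with a median of 4.66, and 10 of the 41 mRNAs were below 1 TPM. At ZT12 the median was 8.16 and 4 mRNAs were below 1 TPM, while at ZT20 it was 15.8 and none was below 1 TPM. The medians of all tested mRNAs were 14.6, 10.8 and 11.4 TPM at the 3 stages. Hence the median of the 41 mRNAs stood below that of all tested mRNAs at ZT0 and above it at ZT20. The choice required a rise in these same values, so nothing is read from this change. All 41 were above 0.1 TPM in at least 1 library and were tested, and 1 of them is listed at 0 in every ZT0 library. Because 1 was added to each TPM value, the log2 differences understate the change of the low mRNAs. Read counts per mRNA cannot be taken from TPM, so no interval for counting error is given, and the read totals of the libraries are not used here.

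Summed over the 41 mRNAs, the level was 726 ± 81.6 TPM (SD, n = 3) at ZT0, 1232 ± 144 at ZT12 and 2307 ± 305 at ZT20. A single mRNA, ENSGALG00000016357, held a large part of this sum. Without it the sums were 310 ± 71.3, 563 ± 109 and 1242 ± 96.8 TPM. In these bulk samples, more cells that express an mRNA and more RNA of it per cell cannot be told apart.

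The libraries of the stages were compared next. All 3 ZT12 libraries were above all 3 ZT0 libraries in 24 of the 41 mRNAs, where 3.6% of all tested mRNAs showed this. All ZT20 libraries were above all ZT12 libraries in 32 of the 41, against 34.6% of all tested mRNAs. Both were true of 21 (0.609% of all tested mRNAs), 3 were separated at the first step only, 11 at the second step only, and 6 at neither. The ZT20 libraries were above the ZT0 libraries in all 41, against 23.2% of all tested mRNAs. The choice of the members used these same libraries, so nothing is read from the difference to the background.

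The fit of limma across all mRNAs, with a log2 fold change above 1 and a Benjamini-Hochberg adjusted p under 0.05, called 2 of the 41 higher at ZT12 than at ZT0, where 0.537% of all tested mRNAs were called higher and 3.32% lower. These were SERPINF1 and ENSGALG00000017197. Between ZT20 and ZT12 it called 19 of the 41 higher, where 16% of all tested mRNAs were called higher. SERPINF1 was the only mRNA of the 41 called at both steps, and 21 were called at neither. The shares of all tested mRNAs called at both or at neither are not given, so nothing is read from these counts. A step between 0.5 and 1 cannot be called at this fold limit, whatever its error. The limits of the choice used both contrasts, and these counts are not evidence for the steps.

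**Figure D2:**
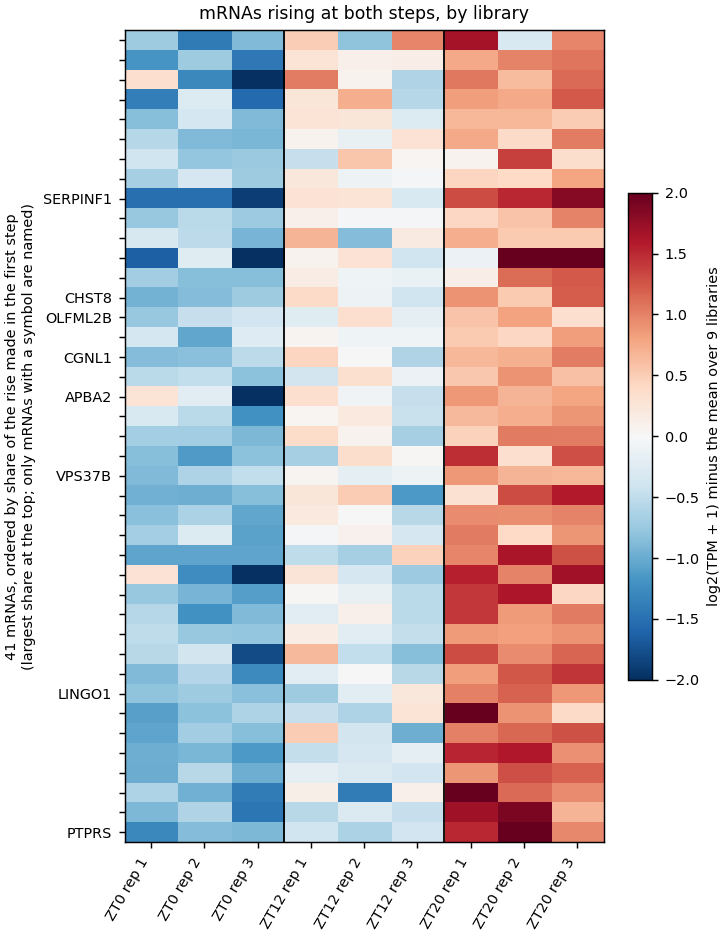
Rows are the 41 mRNAs, columns the 9 libraries, and the color gives log2(TPM + 1) minus the mean of the mRNA over the 9 libraries; rows run from the largest share of the difference in the first step (68.3%) to the smallest (21.9%), both on the deposited scale. ZT0 libraries are mostly blue and ZT20 libraries mostly red, ZT12 libraries lie between, and the pale ZT12 cells next to blue ZT0 cells at the top give way to darker blue ZT12 cells at the bottom.

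The 41 mRNAs varied more between samples of a stage than mRNAs in general. On the log2(TPM + 1) scale their median SD was 0.218, 0.350 and 0.284 for ZT0, ZT12 and ZT20 in turn, while for all tested mRNAs it was 0.172, 0.188 and 0.208. ZT0 replicate 3 was the lowest ZT0 library in 24 of the 41 mRNAs (58.5%), while it was the lowest in 26.1% of all tested mRNAs. The choice of members used these same libraries, and their levels also differed from those of all mRNAs. Nothing is therefore read from these differences in spread and in the lowest library. ZT12 replicate 3 was the lowest ZT12 library in 56.1% of the 41 and in 57.5% of all tested mRNAs. In ZT12 replicate 3 the 10 most abundant mRNAs held 36.1% of the mRNA TPM, against 22.8 to 30.0% in the other libraries. The part that this library composition has in the steps was not tested beyond the scaled values given above. With each of the 9 libraries left out in turn, 29 to 39 of the 41 mRNAs still met the limits. The lowest of these counts, 29, was reached without ZT0 replicate 3, followed by 30 without ZT12 replicate 1. Only 9 of the 41 met the limits with every library left out, among them SERPINF1 and CHST8.

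A gene symbol could be paired with 8 of the 41 identifiers, and these 8 are described by their roles, beginning with secreted proteins. Positions are those of the Ensembl Gallus_gallus v6 build used by the study.

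SERPINF1 (ENSGALG00000003015, chr19:5406929-5413789, 9 exons) had the largest first step and the largest whole difference of the 41 mRNAs on the log2(TPM + 1) scale. By the ratio of TPM means, 2 mRNAs had a larger first step. A larger whole difference was found for 4, PTPRS and 3 mRNAs that were below 1 TPM at ZT0. ENSGALG00000024024, listed at 0 in every ZT0 library, has no ratio to ZT0 and is left out of these counts. SERPINF1 encodes pigment epithelium-derived factor, a secreted member of the serpin family that does not inhibit proteases. In mammals it limits the growth of blood vessels. Its levels were 15.3, 15.3 and 11.5 TPM in the ZT0 libraries, 55.7, 54.7 and 36.5 TPM in the ZT12 libraries, and 113, 131 and 161 TPM in the ZT20 libraries. No library overlapped with those of a neighboring stage. The means were 14.04 ± 2.16, 49.0 ± 10.8 and 135 ± 24.5 TPM (SD, n = 3), which is 3.49-fold from ZT0 to ZT12, 2.76-fold from ZT12 to ZT20 and 9.62-fold in all. On the log2(TPM + 1) scale the steps were 1.72 and 1.46, so that 54.1% of the difference on that scale lay before the LH surge stage. SERPINF1 met the limits in all 12 alternative settings.

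OLFML2B (ENSGALG00000002667, chr8:3792799-3798695, 6 exons), the other secreted protein, belongs to the olfactomedin-like proteins of the extracellular matrix. It was low at every stage, with 0.312, 0.628 and 0.704 TPM at ZT0, 0.882, 1.83 and 0.943 TPM at ZT12, and 2.32, 2.89 and 1.82 TPM at ZT20. The ZT12 libraries were all above the ZT0 libraries, but the lowest ZT20 library lay just under the highest ZT12 library. The means were 0.548 ± 0.208, 1.22 ± 0.528 and 2.34 ± 0.537 TPM, a ratio of 4.27 between ZT20 and ZT0. With steps of 0.50 and 0.60 it lay at the edge of the limits, and it met them in 8 of 12 alternative settings. With 0.1 TPM added in place of 1 the steps were 1.01 and 0.94, and without ZT12 replicate 2 the first step was 0.31.

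Membrane receptors were represented by PTPRS and LINGO1. Both are best known from neurons, where the proteins act in the guidance and the arrest of axons in mammals. PTPRS (ENSGALG00000004048, chr28:4626074-4748768, 34 exons) encodes a receptor tyrosine phosphatase that binds proteoglycans of the cell surface and matrix. Its levels were 0.783, 1.41 and 1.35 TPM at ZT0, 2.32, 1.82 and 2.37 TPM at ZT12, and 11.4, 16.4 and 7.56 TPM at ZT20. The stages did not overlap, and the ZT20 libraries were the most spread. From means of 1.18 ± 0.346 and 2.17 ± 0.308 TPM it reached 11.8 ± 4.43 TPM at ZT20, 9.99-fold above ZT0. The steps were 0.55 and 1.96, which made PTPRS the mRNA of the 41 with the smallest share of its difference, 21.9%, before the LH surge stage. It met the limits in 8 of 12 alternative settings. Its second step passed the upper limit of 2 with 0.1 TPM added in place of 1 (2.33), without ZT12 replicate 3 (2.01) and without ZT20 replicate 3 (2.22). Its first step was 0.41, outside the limits, without ZT0 replicate 1, and 0.86 with 0.1 TPM added.

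LINGO1 (ENSGALG00000002708, chr10:2667332-2767927, 4 exons) encodes a membrane protein with leucine-rich repeats that serves as a co-receptor of the Nogo receptor in mammalian neurons. Levels of 0.447, 0.558 and 0.423 TPM at ZT0 were followed by 0.550, 1.17 and 1.98 TPM at ZT12 and by 4.12, 4.77 and 3.62 TPM at ZT20. ZT12 replicate 1 fell within the range of ZT0, whereas all ZT20 libraries were above all others. The means were 0.476 ± 0.0721, 1.23 ± 0.718 and 4.17 ± 0.575 TPM, so the SD at ZT12 was close to the difference between ZT12 and ZT0. The steps were 0.55 and 1.26, and with 0.1 TPM added in place of 1 they were 1.06 and 1.82. LINGO1 dropped out of the limits when ZT12 replicate 3 was left out, with a first step of 0.31.

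CHST8 (ENSGALG00000004903, chr11:10629242-10799049, 4 exons) was the most abundant of the mRNAs with a symbol at ZT20 next to SERPINF1. It encodes a sulfotransferase of the Golgi that, in mammals, adds sulfate to the N-acetylgalactosamine of glycoprotein hormones such as LH. It stood at 32.8, 34.9 and 39.0 TPM at ZT0, at 84.6, 59.8 and 48.6 TPM at ZT12, and at 121, 92.6 and 150 TPM at ZT20. No stages overlapped, although ZT12 replicate 1 and ZT20 replicate 2 came close. The means of 35.6 ± 3.11, 64.3 ± 18.4 and 121 ± 28.8 TPM gave ratios of 1.81 and 1.89 for the steps and 3.41 in all. The steps were 0.80 and 0.91, and 1.14 and 0.82 after median ratio scaling, so the larger step changed with the scale. Like SERPINF1, CHST8 met the limits in all 12 alternative settings.

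CGNL1 (ENSGALG00000004294, chr10:7263748-7315837, 19 exons) encodes paracingulin, a protein on the inner face of junctions between cells. At ZT0 its levels were 4.19, 4.27 and 5.53 TPM, at ZT12 they were 11.6, 8.38 and 5.22 TPM, and at ZT20 they were 13.99, 14.5 and 18.1 TPM. ZT12 replicate 3 was as low as the ZT0 libraries, and the ZT20 libraries were above all others. The means were 4.66 ± 0.752, 8.40 ± 3.20 and 15.5 ± 2.25 TPM, with steps of 0.68 and 0.86. It missed the limits in 1 of 12 alternative settings, without ZT12 replicate 1, where the first step was 0.44.

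Genes of intracellular traffic were VPS37B and APBA2. VPS37B (ENSGALG00000003743, chr15:5272665-5282778, 4 exons) encodes a subunit of ESCRT-I, the complex that sorts ubiquitinated membrane proteins into multivesicular endosomes. Its levels were even within a stage, with 10.2, 12.5 and 13.7 TPM at ZT0, 20.5, 17.1 and 18.3 TPM at ZT12, and 36.6, 31.9 and 31.8 TPM at ZT20. The stages were clearly separated at both steps. The means were 12.1 ± 1.76, 18.6 ± 1.74 and 33.4 ± 2.73 TPM, and the steps were 0.59 and 0.81, or 2.75-fold in all on the TPM scale. After median ratio scaling the first step was 0.91. Of the 12 alternative settings, VPS37B missed the limits only without ZT0 replicate 1.

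APBA2 (ENSGALG00000003930, chr10:5794553-5833007, 12 exons) encodes an adaptor protein that binds the amyloid precursor protein and takes part in its traffic. It had 6.37, 4.21 and 0.339 TPM at ZT0, 6.65, 4.76 and 3.42 TPM at ZT12, and 10.02, 8.68 and 9.54 TPM at ZT20. The ZT0 and ZT12 libraries overlapped, and a single ZT0 library, replicate 3, was far below the rest. The first step of 0.64 rested on this library and became -0.10 without it. It was 1.13 without ZT0 replicate 1 and 1.08 with 0.1 TPM added in place of 1. The second step of 0.84 separated the libraries of ZT20 from those of ZT12, with means of 9.42 ± 0.682 and 4.94 ± 1.62 TPM. APBA2 also missed the limits without ZT12 replicate 1.

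**Figure D3:**
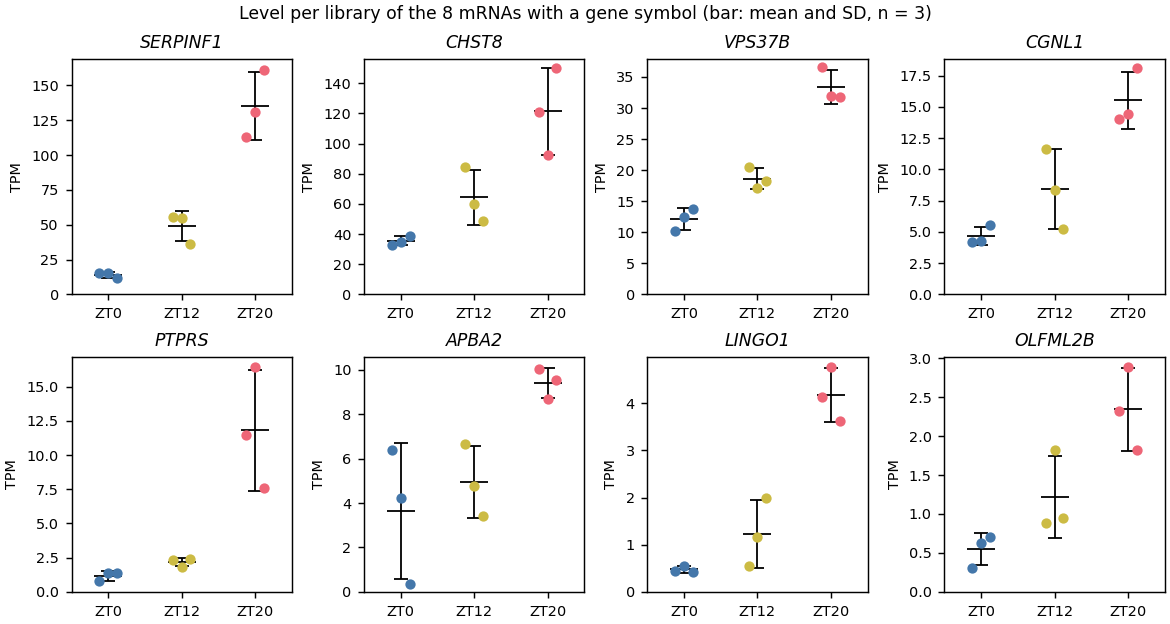
Points are the TPM levels of single libraries at ZT0, ZT12 and ZT20 for the 8 mRNAs with a gene symbol, and bars give the mean and SD of 3 libraries, on a linear axis that starts at 0. The stages did not overlap for SERPINF1, CHST8, VPS37B and PTPRS, while LINGO1, CGNL1 and APBA2 overlapped between ZT0 and ZT12 and OLFML2B between ZT12 and ZT20.

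For 33 of the 41 mRNAs no symbol could be paired. On the log2(TPM + 1) scale, the largest differences between ZT20 and ZT0 among them were those of ENSGALG00000006054 and ENSGALG00000007158. ENSGALG00000006054 had 4.11, 12.4 and 2.19 TPM at ZT0, 15.7, 18.3 and 11.0 TPM at ZT12, and 13.6, 73.8 and 66.2 TPM at ZT20. ZT0 replicate 2 was above ZT12 replicate 3, and ZT20 replicate 1 lay within the range of ZT12. Its steps were 1.38 and 1.42, and the second was 2.18 without ZT20 replicate 1. ENSGALG00000007158 had 93.0, 31.3 and 12.8 TPM at ZT0, 90.6, 59.8 and 45.1 TPM at ZT12, and 224, 151 and 245 TPM at ZT20. Here ZT0 replicate 1 was as high as the highest ZT12 library, so that only the ZT20 libraries stood apart. Its steps were 0.87 and 1.68. The first was 0.21, outside the limits, without ZT0 replicate 3 and 1.59 without ZT0 replicate 1.

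ENSGALG00000016357, singled out after its values were seen, was the most abundant of the 41 mRNAs. It had 393, 457 and 399 TPM at ZT0, 712, 644 and 651 TPM at ZT12, and 887, 989 and 1318 TPM at ZT20. The stages did not overlap. The steps were 0.68 and 0.65 on the deposited scale, and 1.03 and 0.55 after median ratio scaling. Its means were 416 ± 35.6, 669 ± 37.3 and 1065 ± 225 TPM. Also named after their values were seen were ENSGALG00000017197, which limma called at the first step, and ENSGALG00000024024, the mRNA listed at 0 in every ZT0 library. ENSGALG00000017197 had 2.26, 3.52 and 1.74 TPM at ZT0, 7.89, 6.90 and 7.06 TPM at ZT12, and 11.4, 13.6 and 14.5 TPM at ZT20. Its stages did not overlap, and the first step of 1.27 was larger than the second of 0.77. ENSGALG00000024024 had 0.454, 0.305 and 1.85 TPM at ZT12 and 3.08, 5.46 and 4.02 TPM at ZT20. All its ZT20 libraries were above its ZT12 libraries, and no ratio to ZT0 is given because a value listed at 0 has no fold.

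**Figure D4:**
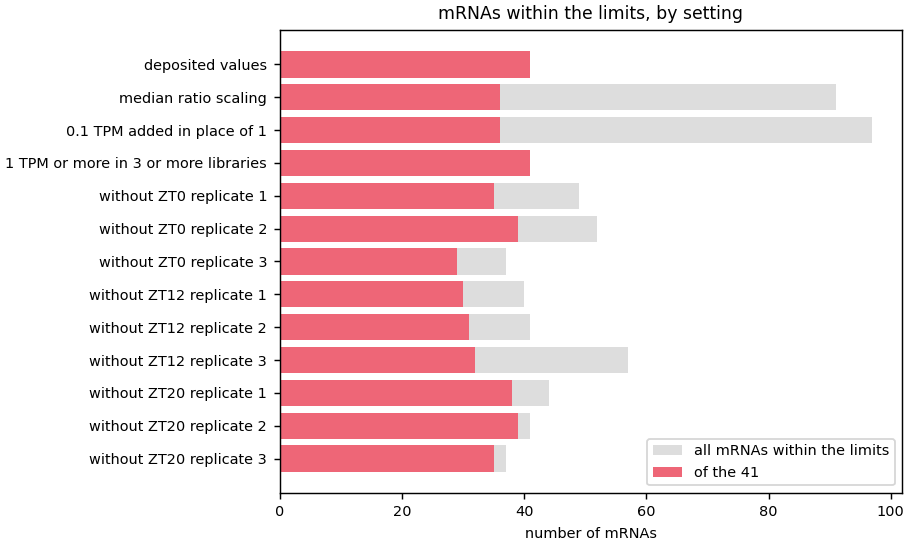
Bars give the number of mRNAs within the limits under each setting, in gray for all mRNAs and in red for those of the 41. The total was 91 with median ratio scaling and 97 with 0.1 TPM added in place of 1, of which 36 each belonged to the 41, and the red bars lay between 29 and 39 when a library was left out.

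The 41 mRNAs were also looked up in 15 lists of genes with known functions in the follicle. Only the part of each list with a paired symbol could be measured, from 2 to 7 genes. No member was found among the paired genes of 13 lists, which include steroidogenesis (5 of 22 listed genes paired), LH, FSH and cAMP signaling (3 of 24), cholesterol synthesis and uptake (3 of 28) and the circadian clock (4 of 25). Absence from a list thus refers to a small part of it.

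The list of cell adhesion and axon guidance held 2 members, PTPRS and LINGO1, among 7 paired of 38 genes. Part of this list came from terms that the study had found with the same libraries, so it is not independent evidence. The median steps of the 5 genes that were not members were 0.29 and -0.34, beside -0.28 and 0.08 for all tested mRNAs, with 4 first steps and 2 second steps above 0. Of the 7 genes, 0 were called at the first step by limma, where 0.537% of all tested mRNAs were called higher and 3.32% lower. Of the 5 that were not members 2 had an unadjusted limma p under 0.05 there, as had 4547 of all 12472 tested mRNAs. CDH4 was called there with median ratio scaling (1.002) and LZTS1 with 0.1 TPM added in place of 1 (1.16). PTPRS, LINGO1 and SEMA7A were called higher at the second step, where 16% of all tested mRNAs were called higher and 11.7% lower. By limma 0 of the 7 were called lower there, while 4 of the 5 had an unadjusted p under 0.05 in either direction, and LZTS1 was called lower with 0.1 TPM added (-2.94). The share of all mRNAs with such a p at the second step is not given, so nothing is read from these counts. SEMA7A, a semaphorin anchored to the membrane, had means of 60.5 ± 7.60, 49.5 ± 5.50 and 124 ± 52.0 TPM, with a second step of 1.21 (SE 0.293, limma adjusted p = 0.00582) that lost its call without ZT20 replicate 2 (0.97). CDH4, a cadherin, was at 6.93 ± 2.33, 11.5 ± 0.821 and 6.06 ± 1.14 TPM, with steps of 0.70 and -0.84 (SE 0.224 each, limma adjusted p = 0.0564 and 0.00979). The second step of CDH4 was past the limit for p but not for the fold change. LZTS1, a leucine zipper protein, was at 0.334 ± 0.0801, 0.860 ± 0.0783 and 0.0286 ± 0.0372 TPM, with steps of 0.48 and -0.85 (SE 0.110 each, limma adjusted p = 0.0246 and 0.000103) that were likewise under the fold limit. UNC5B, a netrin receptor, was at 0.345 ± 0.227, 0.421 ± 0.0969 and 0.122 ± 0.0303 TPM. SLIT3, a secreted ligand of Robo receptors, was at 0.272 ± 0.197, 0.563 ± 0.357 and 1.07 ± 0.282 TPM, and neither of its steps, 0.29 and 0.42, reached 0.5.

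Among prostaglandins and inflammation, SERPINF1 was the only member in 3 paired of 23 genes. PTGS1, a cyclooxygenase, had means of 0.922 ± 0.318, 0.562 ± 0.185 and 3.56 ± 0.283 TPM, with steps of -0.29 and 1.55. PLA2G4A, a phospholipase that releases arachidonic acid, had 33.6 ± 2.59, 33.7 ± 7.07 and 21.6 ± 3.90 TPM.

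Markers of cell types were paired in small part. Of 15 granulosa markers 2 were paired, ZP3 and NR5A2. ZP3, a protein of the inner layer around the egg that granulosa cells make in birds, was at 84106 to 114848 TPM in the 9 libraries. NR5A2, a nuclear receptor of steroidogenic cells, had 428 to 471 TPM in ZT0, 316 to 366 TPM in ZT12 and 24.4 to 38.0 TPM in ZT20 libraries. Of 17 theca and stroma markers only COL6A3 was paired, with at most 0.0309 TPM at ZT0, at most 0.0252 at ZT12, and 0.611 to 1.09 at ZT20. CLDN5, the only paired of 12 endothelial markers, had 24.5 to 74.5 TPM in ZT0, 14.2 to 19.3 TPM in ZT12 and 4.16 to 5.15 TPM in ZT20 libraries. The 2 paired of 24 blood and immune markers, PTPRC and CD74, summed to 33.1 to 55.4, 34.5 to 137 and 18.6 to 31.8 TPM. They differed in direction, with means of 47.2, 74.0 and 26.5 TPM for CD74 and 0.474, 0.299 and 0.676 TPM for PTPRC. Thus the endothelial marker was lower at each later stage, and the stroma marker was higher at ZT20 only. The 2 paired of 11 germ cell markers, ZP2 and PIWIL1, summed to 0.141 to 0.642, 0.298 to 0.696 and 5.90 to 7.46 TPM. Only PIWIL1 was higher at ZT20, with means of 0.340, 0.463 and 6.66 TPM, beside 0.0753, 0.0425 and 0.0545 TPM for ZP2. The 2 paired of 10 surface epithelium markers, LHX9 and CDH1, summed to 0.610 to 1.86, 0.465 to 0.933 and 1.09 to 1.93 TPM. The part of other cell types in the levels of the 41 mRNAs was not tested.

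Positions, which the choice of members did not use, were known for 11 of the 41 mRNAs. Neighbors could be found only among the 1998 of 12479 mRNAs with a known position, so others may be missing. Within 100 kb of 10 of the 11 lay 43 such mRNAs, of which 41 were not members. In these 41 neighbors the first step was above 0 in 9 and both steps were above 0 in 4, with median steps of -0.28 and 0.17. Among all tested mRNAs, 19.7% had a first step above 0 and 6.89% had both. Among the members with a position, the only ones within 100 kb of each other were OLFML2B and ENSGALG00000002581 (chr8:3703920-3706342, steps 0.71 and 1.37). Their distance was 86457 bp.

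The surroundings of SERPINF1 held a related gene and a lncRNA. SERPINF2 (ENSGALG00000002987, chr19:5397323-5403025) lies 3904 bp from SERPINF1 and encodes alpha-2-antiplasmin, the main inhibitor of plasmin. It was singled out after its values were seen. Its levels were 4.39, 2.32 and 2.97 TPM at ZT0, 9.97, 8.85 and 4.69 TPM at ZT12, and 7.66, 6.02 and 7.85 TPM at ZT20. All ZT12 libraries were above all ZT0 libraries, while the ZT20 libraries lay within the range of ZT12. The first step was 1.04 (SE 0.272, limma adjusted p = 0.0332), and the adjusted p ranged from 0.0259 to 0.0987 over all settings, with a call in 10 of 14. The call was lost without ZT0 replicate 2 (0.88), ZT0 replicate 3 (1.01), ZT12 replicate 1 (0.86) or ZT12 replicate 2 (0.93). The second step was -0.06 (limma adjusted p = 0.858) and lay between -0.35 and 0.12 over all settings. SMYD4, only 506 bp from SERPINF1, had steps of -0.20 and -0.43. Thus neither of the nearest mRNAs with a known position showed both steps.

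The only lncRNA with a known position within 100 kb of a member, of 1220 with a position, was G6198 (chr19:5398032-5399677), at 7252 bp from SERPINF1. The study classed it as intronic, and its span lies inside that of SERPINF2. Whether the libraries kept the strand is not given in the sources used here, so reads of G6198 and of unspliced SERPINF2 transcripts cannot be told apart. G6198 had 5.39, 6.04 and 9.93 TPM at ZT0, 4.87, 4.35 and 0.982 TPM at ZT12, and 10.1, 12.01 and 11.1 TPM at ZT20. It was lowest at ZT12, where SERPINF1 was intermediate, and highest at ZT20. In the limma fit over 7414 lncRNAs, G6198 rose from ZT12 to ZT20 by 1.60 (SE 0.413, adjusted p = 0.0101, called in 14 of 14 settings), where 16% of all tested lncRNAs were called higher and 4.8% lower. The difference between ZT12 and ZT0 was -0.99 (SE 0.413, limma adjusted p = 0.17) and was not called, with adjusted p from 0.0942 to 0.595 over all settings. It was -0.38 with median ratio scaling and -0.49 without ZT12 replicate 3, while 0.0135% of lncRNAs were called higher and 0.0674% lower. The lncRNA values were read as log2(TPM + 2), since the lowest deposited value is 1, and this reading sets their TPM.

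**Figure D5:**
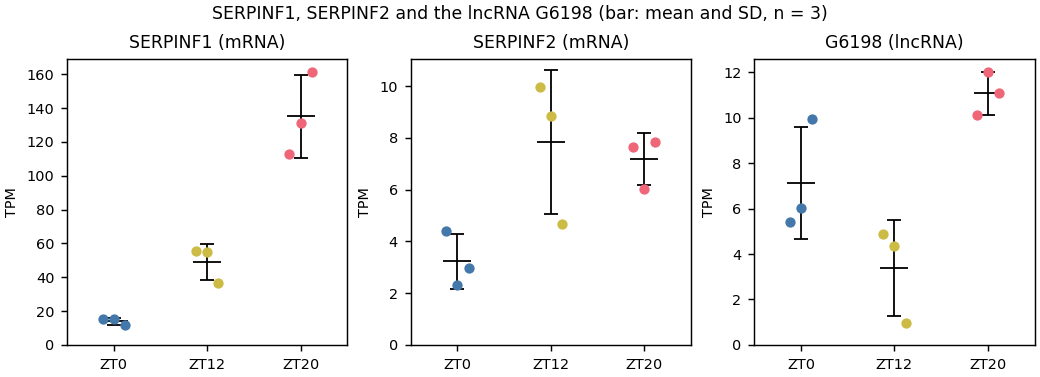
Points are TPM levels of single libraries for SERPINF1, SERPINF2 and the lncRNA G6198 at the 3 stages, with bars for the mean and SD (n = 3) and a linear axis from 0 in each panel. SERPINF1 was higher at each later stage, SERPINF2 was higher at ZT12 than at ZT0 with a second step of -0.06, and G6198 was lowest at ZT12 and highest at ZT20.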

How the data were processed

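The samples were 9 libraries of F1 granulosa cells, 3 per stage, grouped by their labels. Per the study's methods, ribosomal RNA was depleted, reads were aligned with STAR (2.6.0c per the labels), lncRNAs were assembled with Cufflinks (2.2.1 per the labels) and filtered by coding potential, and TPM was estimated with Kallisto. The authors deposited log2 values for mRNAs and for lncRNAs in separate tables, so the reads behind a single value are unknown. Read totals of the libraries are not used here. The log2 was undone, and 1 was subtracted for mRNAs and 2 for lncRNAs to obtain TPM. The DESeq2 test of the authors needs counts and was not run here.

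Transcripts that exceeded 0.1 TPM in 1 or more libraries entered the tests (12472 of 12479 mRNAs, 7414 of 7528 lncRNAs). limma 3.58.1 in R 4.3.3 was fitted to log2(TPM + 1) of all 9 libraries with a mean for each of 3 stages (6 residual degrees of freedom) and a trend of the variance with the mean, and p-values were adjusted by Benjamini-Hochberg over all transcripts of a kind. A call needed an adjusted p under 0.05 together with an absolute log2 fold change of more than 1. Each hen gave 1 library, so p-values set a stage difference against the spread between hens, in which technical spread is included. The fit draws this spread toward the trend over all transcripts. On simulated data for ZT20 against ZT12, 187 of 200 changed mRNAs were recovered with 3 false calls among 12472. For lncRNAs, 147 of 200 were recovered with 2 false calls among 7414. Recovery of a first step was not tested. The size of the differences put into these data is not given here, so nothing about the steps of the members is read from these counts. Counts and distances were computed in Python 3.11.15 with numpy 2.4.6 and pandas 2.3.3.

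The members and the lists of genes were chosen with earlier results of these data known. Named were, among members with a symbol, the 12 with the largest difference between ZT20 and ZT0, the 8 highest at ZT20, the 6 with the largest first step, those in a list and those near a called lncRNA, which took in all 8, as well as mRNAs next to the limits and 2 identifiers without a symbol. Symbols came from the part of the study's annotation used here (1824 mRNAs with a symbol, 1998 mRNAs and 1220 lncRNAs with a position), and the RefSeq table paired 0 identifiers. Sequences are not shown. Alternatives were median ratio scaling, 0.1 TPM added in place of 1, at least 1 TPM in at least 3 libraries, a replicate block and each library left out.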

Additional observations from a re-analysis of the deposited data

How the results depend on the processing

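The number of mRNAs within the limits was 41, but 91 with median ratio scaling, 97 with 0.1 TPM added in place of 1 and 37 to 57 with a library left out. Of the 41, 36 met the limits under either of the former settings, all 41 with the filter of 1 TPM in 3 or more libraries, 29 to 39 with a library left out, and 8 in all 12 settings. Members called higher at ZT12 than at ZT0 were 2, but 6 with scaling, 5 with 0.1 TPM added and 2 to 4 with a library left out (4 without ZT0 replicate 1). All mRNAs called higher in that contrast were 67, but 101 with scaling and 30 to 74 with a library left out (30 without ZT0 replicate 3 and 30 without ZT12 replicate 2). lncRNAs called higher at ZT12 were 1, but 5 with scaling and 2 with the filter at 1 TPM. lncRNAs called higher at ZT20 than at ZT12 were 1185, but 786 with scaling and 1825 with 0.1 TPM added. The first step of APBA2 was -0.10 to 1.13 with a library left out, the lowest without ZT0 replicate 3. Of the values of single genes under the alternatives, 330 were classed as unchanged. These include changes of sign in steps without a call. The first step of SEMA7A was -0.28, but 0.05 with median ratio scaling. The second step of SERPINF2 was -0.06, but 0.12 without ZT12 replicate 1. Another 9 were classed as moved, 5 lost and 3 gained a call, and 1 was classed as reversed, the first step of APBA2. Part of the 330 could not move in size, since the filter, the block or a library of the third stage does not alter a difference. The 330 are therefore no measure of stability. The causes were not tested.

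Stages share replicate numbers in the labels, but the main fit did not pair the samples by them. Deviations of libraries with the same number correlated at -0.187 to 0.0784 across mRNAs and -0.182 to 0.0722 across lncRNAs, with 0 of 9 pairs over 0.1. For mRNAs of other numbers the range was -0.111 to 0.163, and not every sample correlated best with its own number. The deviations of the 3 libraries of a stage sum to 0, which constrains these correlations. They therefore cannot settle whether the numbers pair the samples. With a replicate block, 3 members were called higher at ZT12 than at ZT0 and 18 at ZT20 than at ZT12, all mRNAs called higher were 57 and 2000, lncRNAs were 1 and 1147, and G6198 was called at the second step only.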

Other observations

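Other genes whose symbol begins like that of a named member were looked at after the values were seen. No paired relative was found for LINGO1 and CGNL1. Of 3 other serpins, SERPINC1 (antithrombin) and SERPINE2 (a protease inhibitor also called nexin-1) had first steps of -0.59 and -0.69 and second steps of 1.41 and 1.29, so that they were lowest at ZT12. Of 8 other VPS genes, first steps lay between -0.66 and -0.01, and second steps went from -1.31 to 1.75, the highest being that of VPS35, a part of the retromer. Of 4 olfactomedin genes, OLFML2A, the closest in name to OLFML2B, had means of 51.7, 50.9 and 75.2 TPM with steps of -0.01 and 0.56, and OLFM3 had the only first step above 0.5 (0.54) with a second step of -0.31. CHST6 had steps of 0.45 and -0.22 and CHST12 of -0.37 and 0.07. APBA3 had steps of -0.48 and -0.49. None of these relatives, nor PTPRC with -0.18 and 0.37, was higher at both steps. Only 6.89% of all tested mRNAs were, so nothing about the members is read from this.

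A wide spread at ZT0 in the same order was seen in 3 of the 41 mRNAs, picked after their values were seen. Beside APBA2 and ENSGALG00000007158, ENSGALG00000014233 had 32.3, 9.74 and 4.05 TPM at ZT0, 52.4, 26.7 and 16.4 TPM at ZT12, and 53.8, 39.7 and 57.0 TPM at ZT20. In all 3 mRNAs replicate 1 was the highest and replicate 3 the lowest library both at ZT0 and at ZT12. The same order, with a narrower spread at ZT0, was seen in ENSGALG00000002581, ENSGALG00000016986 and ENSGALG00000036938. The share of all mRNAs with this order is not given, so no pairing of samples is read from it.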
